A study of Saccharomyces cerevisiae with 8 samples.

Results

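The genes described here are 60 nuclear genes of budding yeast (Saccharomyces cerevisiae) that carry an intron and encode neither ribosomal nor meiotic proteins. They were taken from a written list, and each was measured by at least 1 probe set that the platform's annotation assigns to that gene alone. Together they make up 60 of the 5656 genes with such a probe set. RNA recovered with TAP-tagged Upf1p was hybridised to 4 Affymetrix Yeast Genome S98 arrays, and RNA from mock selections run beside them to another 4. Both groups came from cells in rich medium (YEPD) at 30 degrees, and both went through IgG Sepharose and TEV protease cleavage, so that no array held RNA of the whole extract. The labels give neither the strain, nor what the mock cells carried in place of the tag, nor which end of Upf1p was tagged. The amount of RNA was made equal between a tagged and a mock sample before the last cleanup, per the labels' protocols, so a ratio speaks of the make-up of the recovered RNA and not of its yield.

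Upf1p is an RNA helicase and the central factor of nonsense-mediated mRNA decay (NMD), which degrades mRNAs on which translation stops too early. Introns are rare in budding yeast, and most of the transcripts that carry one are spliced before export. An unspliced or wrongly spliced RNA that reaches the cytoplasm usually meets a stop codon inside the intron, and such RNAs are known NMD substrates in this yeast. The genes listed span the working parts of a growing cell, from actin, tubulin and membrane coats to ubiquitin-conjugating enzymes, kinases and RNA-binding proteins. A probe set reports the summed signal of the RNAs it matches. The sources used here do not say where a probe set lies relative to the intron, so spliced and unspliced RNA of a gene were not told apart.

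As a check of the list, the span of each gene from start to stop was taken from a RefSeq gene table (assembly R64). The span was not a whole number of codons for 36 of the 60 genes (60%), against 3.72% of 6021 protein-coding genes in that table. An intron whose own length is a multiple of 3 leaves no such trace, so the other genes are not contradicted. Markers of growing cells (5 measured) had mean mock signals between 6271 and 10468, and 8 genes of meiosis and sporulation between 5.98 and 36.1. Genes specific to alpha cells (4) lay between 314 and 4126 in the mock and genes specific to a cells (4) between 4.55 and 35.9. With the tag, the summed signal of the 8 meiotic genes was 205 to 283, against 98.0 to 149 in the mock, and 3 of them were higher and 1 lower. The summed signal of the growth markers was 24940 to 44995 with the tag and 32535 to 60824 in the mock, and 2 of the 5 were lower. Genes specific to a cells summed to 88.8 to 158 with the tag, all above the 56.3 to 83.0 of the mock, and 1 of the 4 was higher. Those of alpha cells summed to 5327 to 7282 and 7080 to 8298, and 0 of the 4 passed in limma, 1 having an unadjusted p below 0.05. The part of such differences in the results below was not tested. Any pair of tagged arrays correlated at 0.95 to 0.98 in log2 signal, any pair of mock arrays at 0.97 to 0.98, and a tagged with a mock array at 0.90 to 0.94.

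Of the 60 genes, 12 were higher in the Upf1p-TAP selections, 9 were lower and 39 did not pass the test. These shares, 20% and 15%, lie next to those of all 5656 genes, of which 19.6% were higher and 15.2% lower, and of all 9275 probe sets tested, of which 17.7% and 13.5% were. The test was limma with the pair of selections as a block, a two-sided Benjamini-Hochberg adjusted p over all tested probe sets and a threshold of 0.05. Ratios are log2 of Upf1p-TAP over mock, on intensities to which 4.09 had been added. The median ratio of the 60 genes was 0.08, against 0.03 over all genes, and their ratios ran from -1.14 for SFT1 to 1.60 for UBC12. At least 2-fold changes that passed the test were found for 7 higher genes and 1 lower gene, where 10.3% and 5.99% of all genes reached that size. All Upf1p-TAP arrays lay above all mock arrays for 9 genes and below them for 6, against 16.1% and 13.1% of all genes. Of the roles below with a count of 0 in 1 direction, an unadjusted limma p below 0.05 was reached by 1 cytoskeleton gene and 1 metabolism gene upward, 1 RNA gene downward and 0 chromatin genes downward. These roles also differ in brightness, and the part of that in their counts was not tested. By these counts the intron-containing genes as a list stood close to the array as a whole, and the results that follow are about single genes. Without the pair block 9 were higher and 3 lower, and leaving out 1 pair at a time gave 8 to 11 higher and 3 to 5 lower. After each array was centred on its median, 10 were higher and 12 lower, and the median ratio of all probe sets moved to -0.14.

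**Figure D1:**
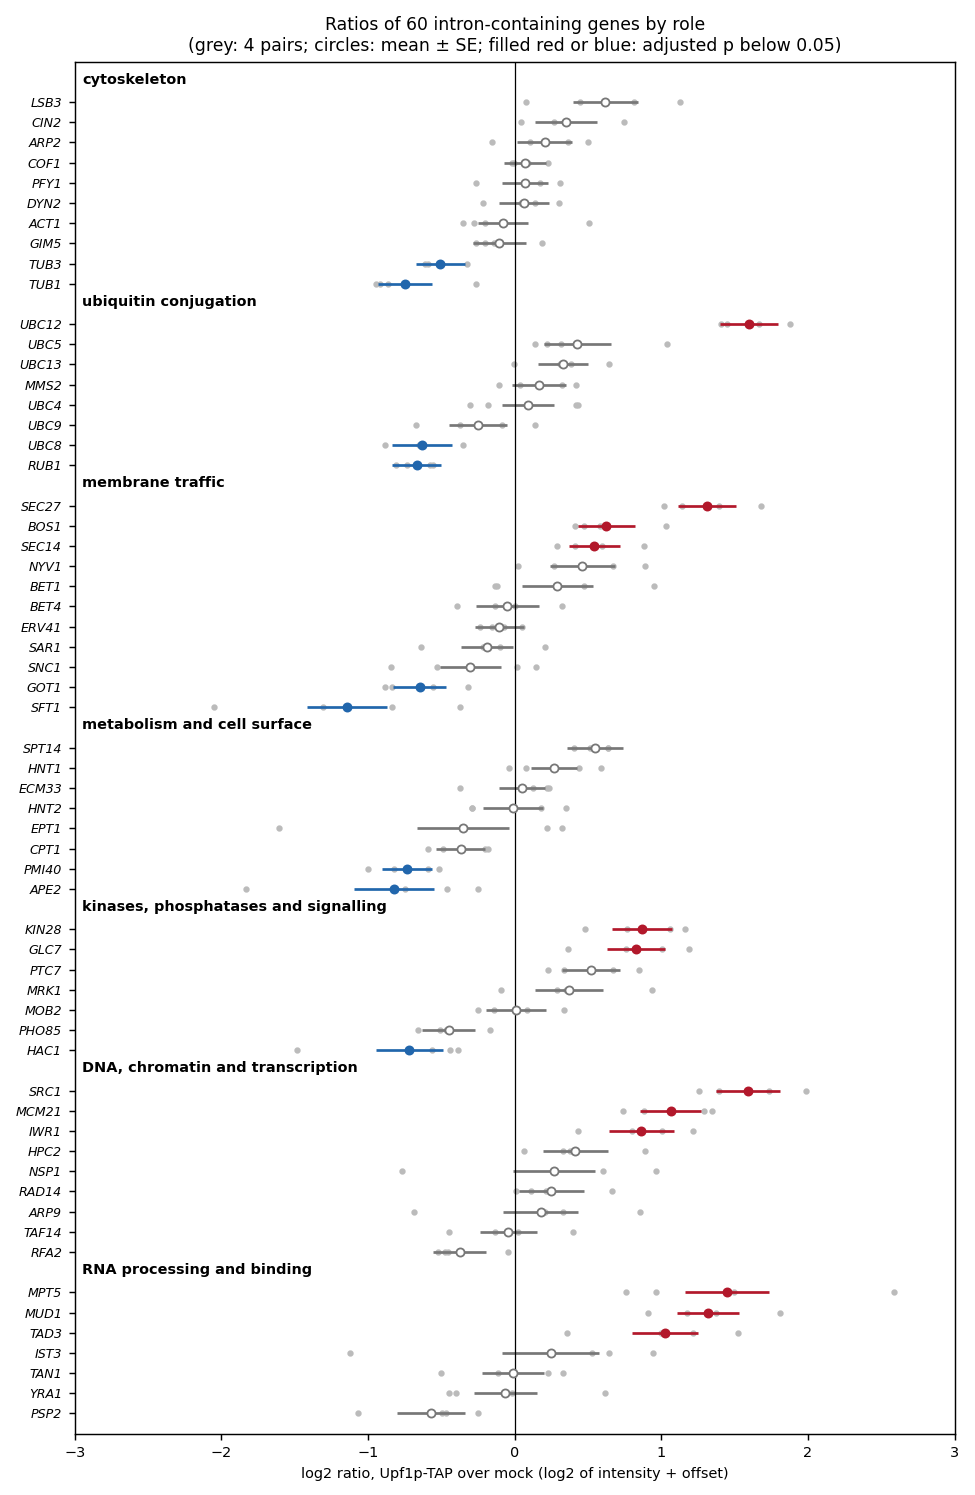
Log2 ratios of Upf1p-TAP over mock for the 60 genes, arranged by role, with grey points for the 4 pairs and circles for the mean ± SE from limma. Filled red circles mark the 12 genes that were higher and filled blue circles the 9 that were lower; most genes of every role lie within 1 log2 unit of 0.

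The transcript with the highest ratio was that of UBC12, the enzyme that attaches the ubiquitin-like protein Rub1p to cullins. Its signal was 270.5, 318, 307 and 268 on the Upf1p-TAP arrays of replicates 1 to 4 and 82.6, 117, 109.8 and 70.0 on the mock arrays. The lowest tagged value exceeded the highest mock value by more than 2-fold. The log2 ratio was 1.60 (SE 0.20, adjusted p = 4.82e-04), a 3.03-fold difference on this scale. RUB1, which encodes the modifier itself, went the other way. Its signal was 925, 812, 544 and 675 with the tag and 1627, 1194, 908 and 1009 in the mock, for a ratio of -0.67 (SE 0.16, adjusted p = 0.014). Every pair was lower, although the groups overlap because mock replicate 3 lay below tagged replicate 1, and without replicate 1 the adjusted p was 0.0560. ULA1 (0.36) and UBA3 (0.54), the intronless genes of the enzyme that activates Rub1p, did not pass.

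The other ubiquitin-conjugating enzymes of the list gave 1 call. UBC8, whose product marks a gluconeogenic enzyme for destruction, had 74.0, 92.7, 70.7 and 53.2 with the tag against 140.4, 119, 113 and 85.5, a ratio of -0.63 (SE 0.20, adjusted p = 0.0411). Only tagged replicate 2 reached into the mock range, but the call ended when any 1 pair was left out (highest adjusted p = 0.134). The probe set of UBC8 is marked for shared sequence, so it may also read RNA of other genes. The paralogs UBC4 and UBC5, which act in the turnover of abnormal proteins, differ widely in brightness on their probe sets, and neither passed. UBC4 had 3324, 3717, 2077 and 3533 against 3781, 2778, 2568 and 2623 (ratio 0.09), and UBC5 had 83.4, 105, 118 and 145 against 75.4, 89.4, 93.7 and 68.5 (ratio 0.43, adjusted p = 0.183). UBC5 was above 0 in 4 of 4 pairs, mostly through pair 4. UBC13 and MMS2, which form 1 enzyme that builds ubiquitin chains in DNA damage tolerance, had ratios of 0.33 (SE 0.17) and 0.17 (SE 0.18). UBC13 had 2167, 1419, 2010.4 and 1517 against 1752, 1427, 1286 and 1159, and MMS2 had 348, 581, 631 and 635 against 376, 567, 504 and 474, with overlapping groups for both. UBC9, the SUMO-conjugating enzyme gene, stood at -0.25. In all, 1 of these 8 genes was higher and 2 were lower.

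RNA processing and RNA binding held 3 of the 12 higher genes among its 7, and 0 lower. The median mock signal of the 7 was 240, in a quartile of all genes by mock signal where 19.2% were higher and 18.8% lower. MPT5 encodes a Puf-family protein that binds mRNA 3′ ends and represses translation. Its signal was 852, 1109, 884 and 817 with the tag and 436, 181, 521 and 288 in the mock, for a ratio of 1.45 (SE 0.29, adjusted p = 0.005). The groups did not overlap, and the pair ratios of 0.96, 2.59, 0.76 and 1.49 were uneven because mock replicate 2 was low. Leaving out 1 pair gave ratios from 1.07 (without replicate 2) to 1.68 (without replicate 3), all past the test.

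MUD1, the gene of the A protein of the U1 small nuclear ribonucleoprotein, which recognises the start of introns, was higher as well. It had 359, 326, 289 and 228 with the tag and 99.3, 171, 109 and 99.1 in the mock, for a ratio of 1.32 (SE 0.21, adjusted p = 0.00199). No tagged array came down to the mock range. TAD3 encodes a subunit of the deaminase that makes inosine in tRNA anticodons, and had 664, 594, 404 and 482 against 228, 296, 315 and 205. Its ratio of 1.02 (SE 0.22, adjusted p = 0.00813) was smallest in pair 3, at 0.36, and the groups did not overlap.

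YRA1 encodes an mRNA export adaptor and is known to limit its own splicing. Its signal was 846, 708, 1453 and 784 with the tag and 1157, 935, 948 and 794 in the mock. Tagged replicate 3 was the brightest array and the other pairs lay below 0, so that the ratio of -0.06 (SE 0.21, adjusted p = 0.852) did not pass. IST3 (0.25), of the complex that helps splicing and retains pre-mRNA in the nucleus, ranged from -1.13 to 0.94 over the pairs. TAN1 (-0.01), needed to acetylate tRNA, and PSP2 (-0.57), an RNA-binding protein gene, did not pass either. PSP2 was dim, at 18.1 in the mock and 10.9 with the tag, where the offset shrinks ratios.

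Genes of DNA, chromatin and transcription gave 3 higher and 0 lower of 9. The 0 depends on the grouping, because HAC1, a transcription factor gene called lower, was counted under signalling. The median mock signal of the 9 was 80.4, in a quartile where 24.5% of all genes were higher and 8.77% lower. SRC1 encodes an inner nuclear membrane protein, and its pre-mRNA is known to be spliced at alternative sites into a pair of products. Its signal was 88.2, 228, 97.3 and 118 with the tag and 23.7, 54.6, 34.6 and 47.0 in the mock, so all tagged arrays lay above all mock arrays. The ratio was 1.59 (SE 0.22, adjusted p = 8.19e-04), or 3.01-fold. MCM21, a kinetochore gene of the COMA complex, had 86.8, 205, 237 and 164 against 45.3, 121, 90.8 and 64.5. These groups overlap, because tagged replicate 1 was dim, but each pair was higher and the ratio was 1.06 (SE 0.21, adjusted p = 0.00502). IWR1, which encodes a factor that carries RNA polymerase II into the nucleus, had 99.0, 65.5, 89.2 and 45.9 against 40.3, 35.9, 42.3 and 32.9 and a ratio of 0.86 (SE 0.22, adjusted p = 0.0165). Its groups were apart by a small gap, and the call was lost on leaving out replicate 1 or 2 (highest adjusted p = 0.0676).

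The other 6 genes of this role did not pass. HPC2 (0.41), of a histone gene regulator, and RAD14 (0.25), a nucleotide excision repair gene, were above 0 in 4 of 4 pairs. NSP1 (0.27), a nuclear pore gene, and ARP9 (0.18), an actin-related subunit of chromatin remodellers, were higher in 3 pairs and below 0 in pair 3. TAF14, a transcription factor subunit gene and the brightest of this role in the mock, had 723, 622, 509 and 420.0 with the tag and 548, 685, 502 and 576 in the mock (ratio -0.04). Its pair 1 stood at 0.40 and its pair 4 at -0.45. RFA2, the middle subunit of replication protein A, had 299, 467, 426 and 439.5 with the tag and 416, 674, 587 and 454 in the mock. It was lower in each pair, but the ratio of -0.38 had an adjusted p of 0.149.

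**Figure D2:**
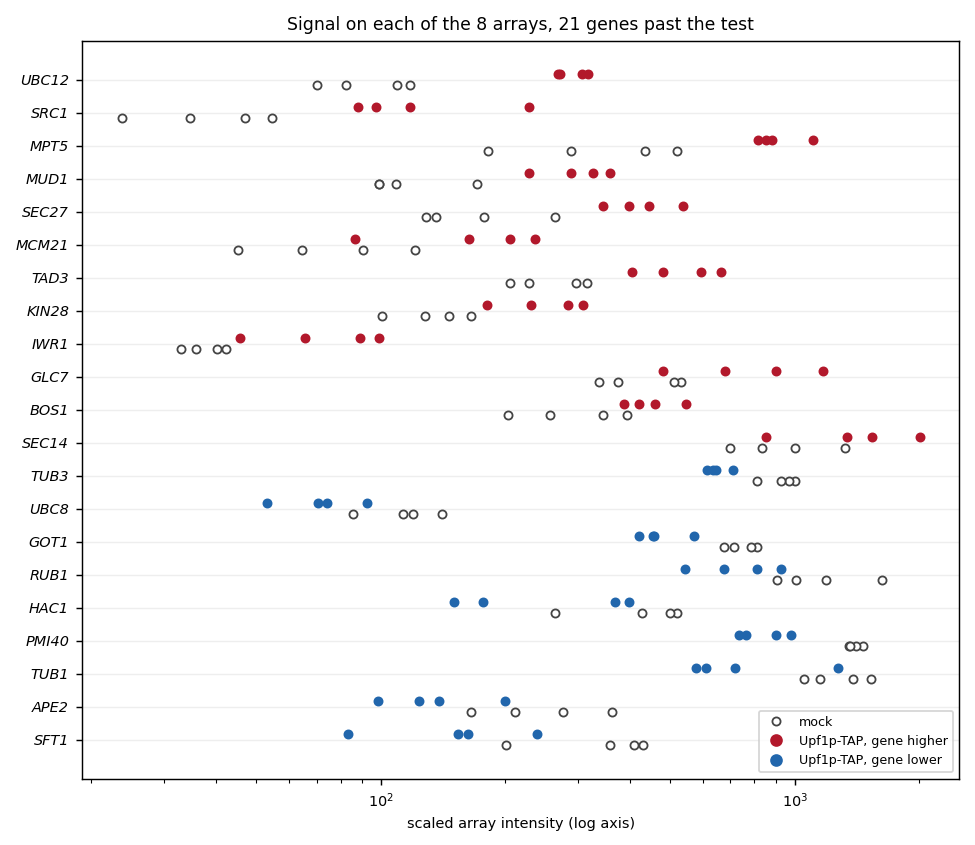
Scaled intensity on each of the 8 arrays (log axis) for the 21 genes that passed the test, with open circles for mock arrays and filled circles for Upf1p-TAP arrays, ordered by ratio. Groups are apart for UBC12, SRC1, MPT5, MUD1 and SEC27 at the top, while SEC14, GLC7 and TUB1 show overlapping groups that differ within pairs.

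Membrane traffic went both ways, with 3 higher and 2 lower of 11. SEC27 encodes a subunit of COPI, the coat of vesicles that return from the Golgi to the endoplasmic reticulum (ER). It had 397, 444, 538 and 344 with the tag and 178, 136, 263 and 128 in the mock, for a ratio of 1.31 (SE 0.20, adjusted p = 0.00137), and the groups did not overlap. BOS1, an ER-to-Golgi SNARE gene, had 386, 548, 459 and 420.2 against 256, 394, 345 and 203. Its ratio of 0.62 (SE 0.19, adjusted p = 0.0354) was above 0 in every pair, while mock replicate 2 lay above the lowest tagged array. The call was lost on leaving out replicate 1, 2 or 4 (highest adjusted p = 0.165). SEC14 encodes a phosphatidylinositol transfer protein of the Golgi, and had 854, 1335, 2003 and 1537 against 698, 1004, 1327 and 833. Both groups were widely spread and overlapped, and the ratio of 0.54 (SE 0.17, adjusted p = 0.0402) rests on the pairing. It was not called without the block (adjusted p = 0.182), nor when any 1 pair was left out (highest adjusted p = 0.176).

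SFT1, a SNARE gene of transport within the Golgi, had the lowest ratio of all 60. Its signal was 153, 238, 83.2 and 163 with the tag and 200.3, 429, 357 and 409 in the mock, for a ratio of -1.14 (SE 0.27, adjusted p = 0.012). Pair 3 was far lower, at -2.05, than pair 1, at -0.38, and tagged replicate 2 lay above mock replicate 1. GOT1, needed for ER-to-Golgi transport, had 572, 455, 421 and 458 against 716, 813, 783 and 675 and a ratio of -0.65 (SE 0.18, adjusted p = 0.025). Its groups did not overlap, yet the call was lost on leaving out replicate 2, 3 or 4 (highest adjusted p = 0.103). The GTPase gene SAR1, which starts COPII coat assembly and was the brightest of this role, had 2159, 1804, 1159.5 and 1938 against 2318, 2101, 1807 and 1678 (ratio -0.19, adjusted p = 0.465). NYV1 (0.46), BET1 (0.29) and SNC1 (-0.30), all SNARE genes, did not pass. Neither did the prenyltransferase subunit gene BET4 (-0.05) or ERV41 (-0.10), which encodes a cargo protein of ER vesicles.

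The median mock signal of the 10 cytoskeleton genes was 950, in a quartile where 10.3% of all genes were higher and 29.1% lower. In the cytoskeleton 0 of 10 genes were higher and 2 were lower, and these were the alpha-tubulin genes. TUB1, the main one, had 1273, 609.8, 718 and 579 with the tag and 1529, 1154, 1388 and 1056 in the mock, for a ratio of -0.75 (SE 0.18, adjusted p = 0.0141). Tagged replicate 1 stood apart from the other tagged arrays and overlapped the mock group, and the call was lost on leaving out replicate 2 or 4 (highest adjusted p = 0.0637). TUB3, the minor one, had 647, 709.7, 635 and 615 against 813, 1004, 970.3 and 928. Its groups did not overlap, and the smaller ratio of -0.51 (SE 0.17, adjusted p = 0.0455) lost its call in every fit that left out 1 pair (highest adjusted p = 0.150). Both probe sets carry no mark for shared sequence, but the genes are close copies and a probe set of one may also read RNA of the other. TUB2, the intronless beta-tubulin gene, had a ratio of 0.20 and did not pass. TUB1 was lower than TUB2 in ratio by 0.95 on average, in 3 of 4 pairs.

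ACT1, the actin gene and the brightest of the 60, had 7054, 4748, 7683 and 5529 with the tag and 8991, 5464, 5398 and 6709 in the mock. The groups overlapped throughout, and the ratio was -0.08 (SE 0.17, adjusted p = 0.761). The array also carries control probe sets for ACT1 that lie toward its 5′ end, middle and 3′ end, which were outside the test. Their mean ratios were -0.77 ± 0.69, -0.62 ± 0.44 and -0.41 ± 0.21 (SD, n = 4 pairs). The 5′ signal of tagged replicate 1 was 528, against 1331 to 2084 on the other tagged arrays and 1803 to 2806 in the mock. All 3 control sets were below 0 in 4 of 4 pairs, unlike the ACT1 set in the test, which was at 0.51 in pair 3. The same controls for SPT15, which is not one of the 60, had mean ratios of 0.35, 0.37 and 0.27. In pair 1 these were -0.07, 0.14 and 0.94. The 5′ signal of SPT15 on tagged replicate 1 was 156, against 314 to 373 on the other tagged arrays and 165 to 278 in the mock. The part of 5′ signal loss in the ratios given here was not tested.

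Of the other cytoskeleton genes none passed the test. COF1 (cofilin, ratio 0.07) and PFY1 (profilin, 0.07) were bright and had SEs of 0.14 and 0.16. ARP2, of the complex that branches actin filaments, stood at 0.20. LSB3, an actin patch gene, was higher in 4 of 4 pairs with 186, 270.2, 440.5 and 328 against 175, 198, 199 and 184, yet missed the threshold (ratio 0.62, adjusted p = 0.0615). CIN2 (0.35), of tubulin folding, DYN2 (0.07), the dynein light chain gene, and GIM5 (-0.10), a prefoldin subunit gene, did not pass.

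Among kinases, phosphatases and signalling, 2 of 7 genes were higher and 1 lower. KIN28 encodes the kinase of TFIIH that phosphorylates RNA polymerase II. It had 181, 284, 309 and 230.4 with the tag and 128, 165, 146 and 101 in the mock, without overlap, and a ratio of 0.87 (SE 0.20, adjusted p = 0.0116). Without replicate 4 the adjusted p was 0.0628. GLC7, the catalytic subunit gene of protein phosphatase 1, had 481, 899, 1171 and 678 against 374, 531, 512 and 336. Its groups overlapped but each pair was higher, with a ratio of 0.83 (SE 0.20, adjusted p = 0.0119). Without replicate 4 the adjusted p was 0.0545, and without the block 0.0506.

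HAC1 encodes the transcription factor of the unfolded protein response, and its intron is removed in the cytoplasm by Ire1p and a tRNA ligase in place of the spliceosome. It had 177, 150.1, 398 and 368 with the tag and 264, 427, 521 and 501 in the mock, for a ratio of -0.72 (SE 0.23, adjusted p = 0.0398). The groups overlapped, with tagged replicates 3 and 4 above mock replicate 1. Each pair was lower, most so pair 2 at -1.48, and the call was lost on leaving out replicate 1, 2 or 4 (ratio -0.46 and adjusted p = 0.182 without replicate 2). The brightest of its probe sets did not pass either (ratio -0.48, adjusted p = 0.164). IRE1 (0.22) and TRL1 (-0.74), the genes of those enzymes, were dim, at 11.7 and 18.2 in the mock, and did not pass.

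PTC7, a mitochondrial phosphatase gene whose retained intron is known to be translated, was above 0 in 4 of 4 pairs. It had 333, 299, 245 and 299.9 against 183, 254, 194 and 187, and its ratio of 0.52 had an adjusted p of 0.0748. PHO85, a cyclin-dependent kinase gene, was lower in each pair with 357, 480.4, 468 and 443 against 510.4, 760.0, 648 and 499, and missed the threshold too (ratio -0.45, adjusted p = 0.0854). The relative of mammalian GSK-3 encoded by MRK1 (0.37) and the kinase activator of MOB2 (0.01) were the others.

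Metabolism and cell surface gave 0 higher and 2 lower of 8. The median mock signal of the 8 was 792, in a quartile where 10.3% of all genes were higher and 29.1% lower. PMI40, whose enzyme makes mannose phosphate for glycosylation, had 732, 764, 979 and 901 with the tag and 1466, 1353, 1404 and 1363 in the mock. The mock arrays lay close together and above all tagged ones, with a ratio of -0.73 (SE 0.17, adjusted p = 0.0106). Without replicate 2 the adjusted p was 0.0502. APE2, an aminopeptidase gene, had 199.7, 138, 98.5 and 124 against 276, 165, 361 and 211. Its ratio of -0.82 (SE 0.27, adjusted p = 0.0446) was largest in pair 3, at -1.83, the groups overlapped, and without replicate 3 it was -0.49 with an adjusted p of 0.135. The call was lost on leaving out replicate 1 or 4 too.

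The related transferases CPT1 and EPT1, which finish the synthesis of phosphatidylcholine and phosphatidylethanolamine, did not pass. CPT1 had 1018, 992, 971 and 1136 against 1172, 1394, 1468 and 1291 and was lower in each pair (ratio -0.37, adjusted p = 0.126). EPT1 had 97.2, 220.3, 74.1 and 237 against 125, 189, 234 and 189, with pair 3 at -1.61 and pairs 2 and 4 above 0. SPT14, of the first step of glycolipid anchor synthesis, was higher without overlap, at 173, 192, 194 and 193 against 110.1, 144, 134 and 122. Its ratio of 0.55 narrowly missed the threshold (adjusted p = 0.0534). ECM33, a cell wall protein gene and the brightest of this role, had 4433, 4964, 5897 and 5556 against 5735, 4257, 5024 and 5106 (ratio 0.05). HNT1 (0.27) and HNT2 (-0.01), which encode nucleotide hydrolases, did not pass on the probe sets that stand for them.

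For 13 of the 60 genes there were 18 further probe sets assigned to that gene alone, of which 4 were higher and 4 lower. Over all tested probe sets 17.7% were higher and 13.5% lower. The higher sets include more than 1 of HNT2, so they do not stand for 4 separate genes. Sets of a gene differ in brightness and in the marks of their names, and what sets their ratios apart was not tested. SRC1 was higher on both of its sets. Its dimmer set had 14.5, 31.8, 22.0 and 24.6 with the tag and 9.55, 12.1, 13.7 and 10.1 in the mock, for a ratio of 0.79 (SE 0.23, adjusted p = 0.0283). RUB1 was lower on both, with 141, 194, 103 and 145 against 339, 339.6, 224 and 242 on the second and a ratio of -0.96 (SE 0.20, adjusted p = 0.0059).

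HAC1 had 5 sets, all with negative ratios. Of these 2 passed, and the set marked for shared sequence gave 241, 232, 528 and 628 with the tag and 675, 624, 829.7 and 849.9 in the mock, for a ratio of -0.99 (SE 0.23, adjusted p = 0.00976). Its dimmest set stayed under 6 on all 8 arrays near the offset, so its ratio says little.

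The 2 sets of ECM33 disagreed. The second had 213, 774, 642 and 1053 with the tag against 762, 1314, 1794 and 1293 in the mock, for a ratio of -1.09 (SE 0.25, adjusted p = 0.0107), where the brighter set stood at 0.05. Tagged replicate 1, which also had the low 5′ signal of ACT1, was the lowest array there. The part of that array in the disagreement was not tested, and the ratio was below 0 in the other 3 pairs too. GLC7 was higher only on its bright set, and its second, at 41.8 with the tag and 46.4 in the mock, had a ratio of -0.23 that did not pass. YRA1 gave 462, 642, 1212 and 703 with the tag and 999.6, 845, 870.1 and 763 in the mock on its second set (ratio -0.29), again highest in pair 3.

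HNT2 went from -0.01 on its plain set to 0.75, 0.88 and 1.33 on sets with marked names (suffixes _i_at, _r_at and _f_at). The last had 41.9, 30.8, 37.9 and 23.0 with the tag and 4.07, 17.3, 13.5 and 10.6 in the mock, with no overlap and an adjusted p of 0.0104. These sets were dim, with mock means of 8.12, 2.61 and 11.4, and whether they also read RNA of other genes was not tested. HNT1 passed on its second set (0.55, adjusted p = 0.0334), and TAN1 was lower on a dim second set (-0.80, adjusted p = 0.0258). The further sets of APE2 (-0.47), EPT1 (-0.67), MRK1 (-0.46) and SNC1 (-0.39) did not pass.

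**Figure D3:**
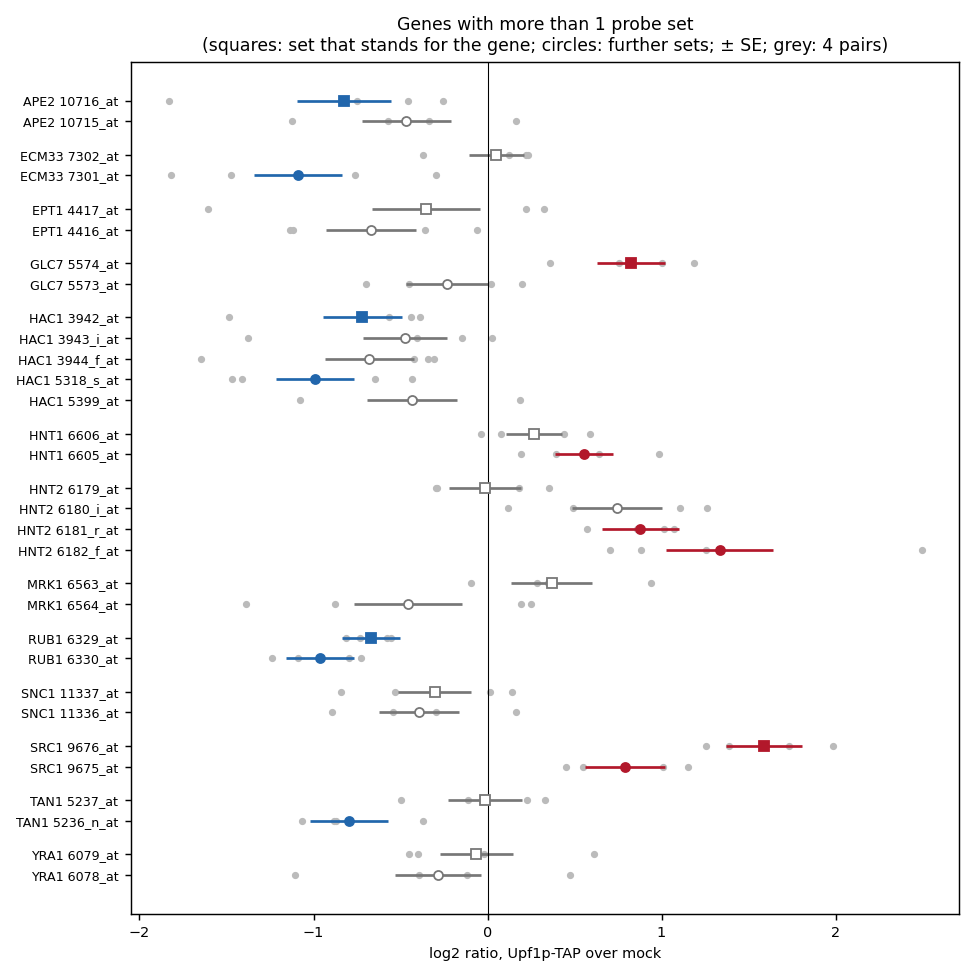
Log2 ratios for the 13 genes with more than 1 probe set, with squares for the set that stands for the gene, circles for further sets, bars for SE and grey points for the 4 pairs; filled symbols passed the test. The sets of SRC1, RUB1 and HAC1 point 1 way, while those of ECM33, GLC7 and HNT2 differ.

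Over the whole array ratios were lower at higher mock signal, and the 60 genes are brighter than most. In the brightest quartile of genes by mock signal, above 313, lay 30 of them, with 15, 10 and 5 in the quartiles below. In that brightest quartile 3 of 30 were higher and 7 lower, with a median ratio of -0.09, against 10.3% higher, 29.1% lower and a median of -0.26 for all 1414 genes there. The quartile below held 5 higher and 2 lower of 15, with a median of 0.52, against 19.2%, 18.8% and -0.04 for all genes of the quartile. In the 2 dimmer quartiles together 4 genes were higher and 0 lower (1 at an unadjusted limma p below 0.05), where 24.5% of all genes were higher in each quartile and 4.24% and 8.77% lower. Mock signal is itself part of the ratio, which by that alone tilts such a comparison. With quartiles set by the mean over all arrays, the medians of the 60 genes were 0.25, 0.37, 0.53 and -0.05 from dimmest to brightest, and those of all genes 0.12, 0.11, 0.04 and -0.15. In both versions the median of the 60 genes lay above that of all genes in the 3 brighter quartiles. No test was made of these medians.

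**Figure D4:**
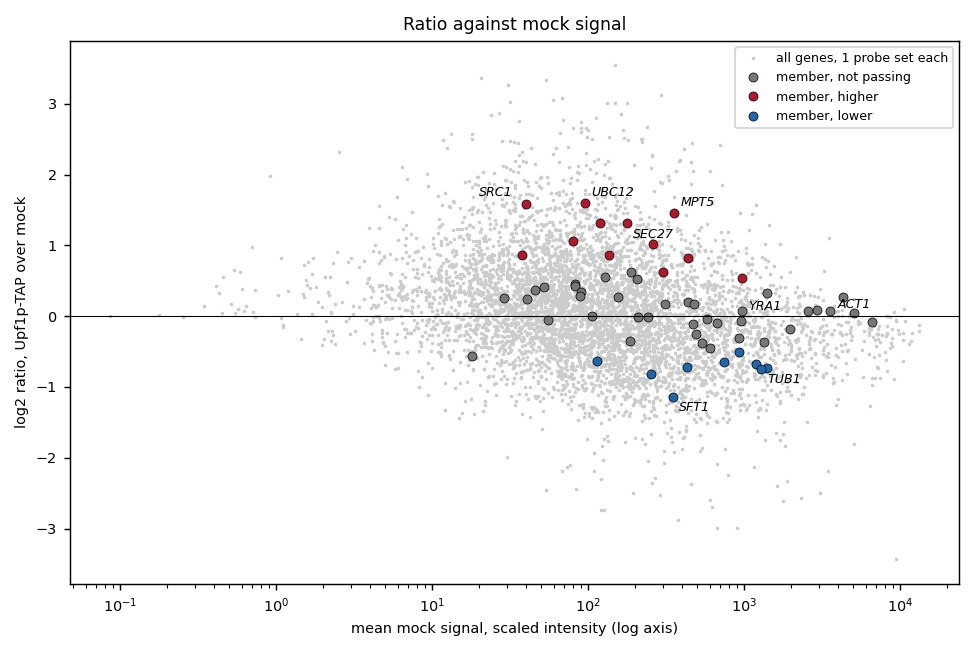
Log2 ratio against mean mock signal (log axis), with grey points for 5656 genes and large points for the 60 intron-containing genes. Of the 12 higher genes 7 lie in the middle quartiles of mock signal, such as UBC12 at a mean of 95.0, 2 in the dimmest and 3 in the brightest, such as MPT5 at 356, and the brightest, ACT1, lies near 0.

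Other sets of genes give a frame for these counts. The 78 measured relatives and partners with no known intron and a span of whole codons gave 14 higher and 10 lower, with a median of 0.03. These shares, 17.9% and 12.8%, lie near the 19.6% and 15.2% of all genes. Meiotic genes with introns gave 4 of 13 higher (30.8%) and 0 lower, with a median of 0.44, and 0 were lower at an unadjusted limma p below 0.05. Their median mock signal was only 6.12, in the dimmest quartile, where 24.5% of all genes were higher and 4.24% lower. Ribosomal protein genes of the cytoplasm, many of which carry introns, gave 2 of 80 higher and 26 lower (2.5% and 32.5%, median -0.30). Their median mock signal was 4725, in the brightest quartile, where 10.3% of all genes were higher and 29.1% lower (median -0.26). Splicing factor genes gave 22 of 77 higher and 2 lower (28.6% and 2.60%), with a median of 0.12. Their median mock signal was 49.3, in a quartile where 24.5% of all genes were higher and 8.77% lower.

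Partners in the same complex, or relatives in the case of MPT5 and SNC1, were compared for 20 of the genes, a set drawn up after the ratios were known. It holds most of the genes called higher and, of those called lower, TUB1 alone. A gene with a high ratio tends by that alone to exceed its partners, so the sign of its difference is no separate result. With 4 pairs the exact two-sided sign-flip test cannot go below 0.125, so none of these differences can pass at 0.05. SEC27 differed most evenly. Its ratio exceeded the mean of COP1, SEC21, SEC26, RET2 and RET3, the other COPI subunits measured, by 1.50 ± 0.04 (SD, n = 4 pairs), and by 1.47 to 1.56 in single pairs (exact p = 0.125). Those 5 genes had ratios from -0.49 (RET3) to 0.41 (SEC21), and 0 of them passed in limma, though 2 had an unadjusted p below 0.05.

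KIN28 and its partners in TFIIK moved apart. CCL1 (-0.75, adjusted p = 0.0258) and TFB3 (-0.60, adjusted p = 0.0417) were lower where KIN28 was higher, and the difference was 1.54 ± 0.33, positive in 4 of 4 pairs (exact p = 0.125). TAD3 exceeded TAD2 (-0.43), the catalytic subunit gene of the same deaminase, by 1.45 ± 0.59. UBC12 exceeded the mean of ULA1 and UBA3 by 1.15 ± 0.29, and MUD1 that of SNP1 (0.89, adjusted p = 0.0247) and YHC1 (-0.38), of the same U1 particle, by 1.07 ± 0.33. Each of these differences was positive in 4 of 4 pairs (exact p = 0.125). SNP1 was itself higher, and YHC1 did not pass. Of the relatives of MPT5, PUF4 stood at 0.28, and PUF3 was too dim for its ratio to be read, at 9.50 in the mock and 7.34 with the tag.

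MCM21 was higher together with its COMA partner CTF19 (1.37, adjusted p = 0.00972), which was dim in the mock at 5.76, while AME1 was lower (-1.34, adjusted p = 0.00873) and OKP1 (0.11) did not pass. The ratio of MCM21 exceeded the mean of those 3 by 1.01 ± 0.39, in 4 of 4 pairs (exact p = 0.125). ARP9 did not pass where its dimer partner ARP7 was higher (1.96, adjusted p = 0.00124). PHO85 had a negative ratio where its cyclin gene PHO80 was higher (1.59, adjusted p = 8.99e-04), a difference of -2.04 ± 0.33 (exact p = 0.125). MOB2 stood near 0 and the gene of its kinase, CBK1, was higher (1.28, adjusted p = 0.00345). IST3 lay below BUD13 (0.73) and PML1 (1.46) of the same splicing complex. Of replication protein A, RFA1 was lower (-1.28, adjusted p = 0.0217), and RFA2 and RFA3 (-0.33) did not pass. Differences from partners or relatives were small for GIM5 (-0.04 ± 0.31), SNC1 (0.04 ± 0.53), HPC2 (0.19 ± 0.43) and NSP1 (0.23 ± 0.64). These changed sign between pairs, as did those of ERV41 (0.56 ± 0.60) and BET4 (-0.92 ± 0.85). ARP2 exceeded the mean of its partners by 0.54 ± 0.20, in 4 of 4 pairs (exact p = 0.125).

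**Figure D5:**
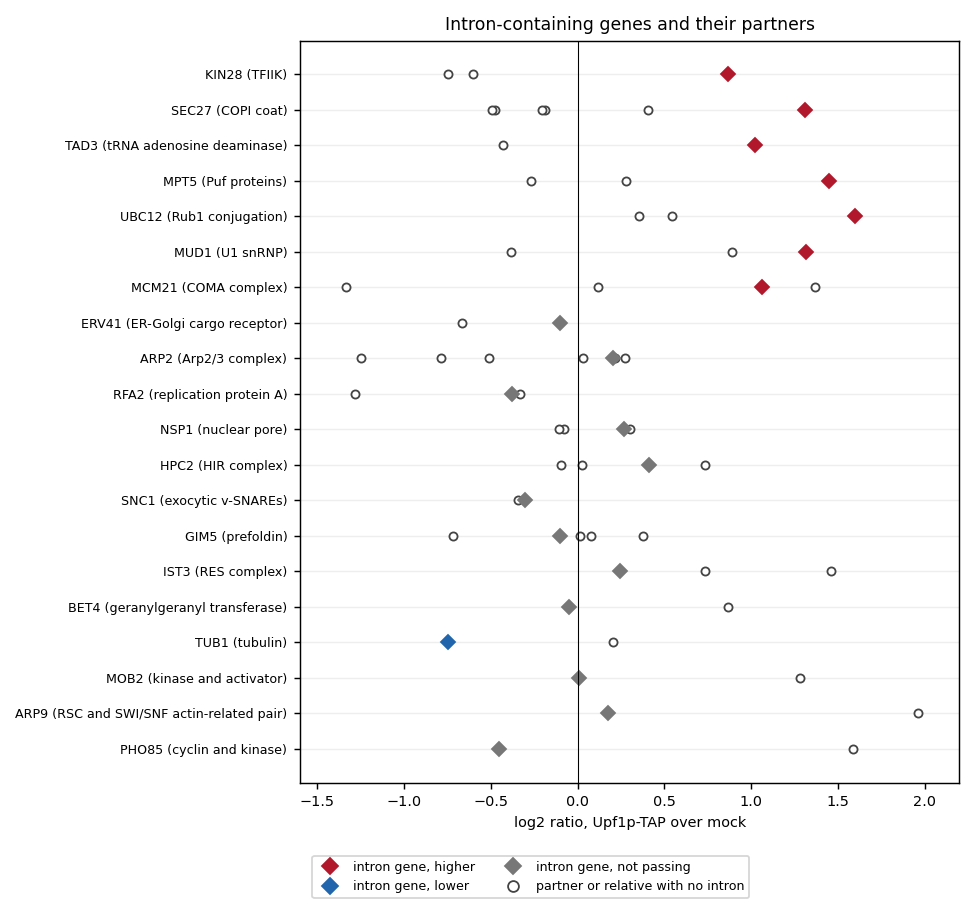
Log2 ratios of 20 intron-containing genes (diamonds, coloured by call) and of partners or relatives with no intron (open circles), ordered by the difference. Of the higher genes shown, KIN28, SEC27, TAD3, MPT5, UBC12 and MUD1 lie to the right of all their partners and MCM21 lies between its own. A high ratio by itself favours the right side. PHO85, ARP9, MOB2, TUB1, BET4 and IST3 lie to the left of theirs.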

How the data were processed

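The authors deposited 1 table of scaled array intensity values, 9335 probe sets by 8 arrays, made with GCOS per the submitters' processing notes, with no version given. From the values, every array had been scaled to a trimmed mean of 250.2 to 250.3 (2% left out at each end), and array medians were 58.2 to 78.1. Neither scanner files nor detection calls were used here, and precision is limited by the number of arrays. After 60 control probe sets were set aside, 9275 were tested, of which a platform table gave 6504 1 gene, 328 several and 2443 none.

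A gene with several probe sets was shown by a plain one (suffix _at) before others, then by the brightest. UBC8, LSB3 and MOB2 were shown by sets marked for shared sequence (suffix _s_at). limma 3.58.1 in R 4.3.3 fitted log2(intensity + 4.09), the 10th percentile of tested values, with group and pair, and eBayes with an intensity trend; p-values are Benjamini-Hochberg adjusted over 9275. The design text calls the selections independent pairs, and deviations of same-numbered arrays correlated at 0.19 to 0.56, others at -0.55 to 0.35. Deviations were taken from the mean of each group, which by itself pushes the others down where same-numbered arrays are positive. The ranges also overlap, so the block rests on the design text. The labels do not say that cultures were separate, so p-values measure the spread between selections. The fit was also run on simulated data, which held no effect of pair and so did not test the pair block. The genes and lists were chosen with earlier results of these data known. Genes shown with every array's value were up to 12 called in each direction with 1 sign in all pairs, genes with known unusual splicing, related pairs, and the brightest and smallest-p gene of each role; genes that nearly passed and a few others were added after their values were seen. GIM4 and MOB1 were left out of the partners with no intron because their spans are not whole codons. Intron lengths and places, planned as descriptions, and sequences were not used here.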

Additional observations from a re-analysis of the deposited data

Results flagged for a closer look

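In 4 of 120 groups of 4 arrays (60 genes, 2 groups each), 1 array lay far from the other 3 by a gap test that flags about 1 group in 20 by chance. They were mock replicate 1 of COF1, high at 5062, tagged replicate 1 of MMS2, low at 348, tagged replicate 4 of RAD14, low at 22.5, and tagged replicate 1 of SPT14, low at 173. None of these 4 genes passed the test as reported.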

How the results depend on the processing

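Of the 21 genes that passed, 8 (UBC12, SRC1, MPT5, MUD1, SEC27, MCM21, TAD3 and SFT1) passed in the same direction under all 13 alternatives, which changed the offset, dim filter, scaling, block, variance trend, pair left out or probe set. KIN28 lost its call without replicate 4 (adjusted p = 0.0628), IWR1 without replicate 1 or 2 (highest 0.0676), and PMI40 without replicate 2 (0.0502). GLC7 lost it without replicate 4 (0.0545), without the block and with the mean of its probe sets (ratio 0.30, adjusted p = 0.322). The others lost it under 2 to 7 alternatives, RUB1 the fewest and SEC14 and HAC1 the most. The replicate block mattered for the lower genes: with no replicate block 3 of 60 were lower against 9, and 9 higher against 12. The genes lost were TUB1, TUB3, UBC8, RUB1, HAC1 and APE2, and GLC7, BOS1 and SEC14 (adjusted p = 0.0506 to 0.182). Leaving out 1 pair gave 3 to 5 lower and 8 to 11 higher genes, and over all probe sets 775 to 953 lower and 1076 to 1384 higher, against 1249 and 1642. Fewer arrays enter those fits; the cause of other changes was not tested. After median centring the median of the 60 genes was -0.062, with the median of all probe sets at -0.14. PHO85 was then called lower, as after quantile normalization, and so were CPT1 and PSP2, while BOS1 and SEC14 lost their calls. Of all calls 56.8% were toward higher, 49.6% after quantile normalization and 42.7% after median centring. HNT2 turned from -0.01 to 0.74 (adjusted p = 0.0216) with the mean of its probe sets. The dim filter left out 5 of the 60 genes and called LSB3 and SPT14 higher; LSB3 passed also without replicate 1, and SPT14 with the mean of its probe sets.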
